A study of Rattus norvegicus with 6 samples.

Results

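The mitochondrial ribosomal proteins are the nuclear-encoded proteins of the ribosome inside mitochondria. Members were chosen by name alone: every gene with 1 transcript cluster of its own on the array whose symbol reads Mrpl or Mrps followed by a number. The rule found 72 of the 18166 genes measured, of which 45 were named for the large subunit and 27 for the small subunit. They covered 70 of the 77 symbols of the mammalian mitochondrial ribosome listed for this work. The other 2 members, Mrpl41l1 and Mrps21l, were taken from their symbols as further copies of Mrpl41 and Mrps21. Mrpl9, Mrpl11, Mrpl24, Mrpl33, Mrpl39, Mrps2 and Mrps22 were not analysed here.

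The mitochondrial ribosome translates the few messenger RNAs of the mitochondrial genome, all of which encode subunits of the respiratory chain and ATP synthase. Its ribosomal RNAs come from the mitochondrial genome, whereas its proteins are encoded in the nucleus, made in the cytosol and imported. Some of these proteins descend from proteins of the bacterial ribosome, and others are found only in mitochondria. Kidney tubules, above all the proximal tubule and the thick ascending limb, are rich in mitochondria, which supply the ATP for salt reabsorption.

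Kidney RNA was compared between diabetic rats given Shenqi Jiangtang Granule (SJG), a Chinese herbal preparation, and diabetic rats left without it, on 3 arrays per group. All rats were Sprague Dawley, the labels give 17 weeks for both groups, and diabetes had been induced in both with streptozotocin, a toxin of the insulin-producing beta cells, at 60 mg/kg. The study's text names a high-fat diet in its summary only, describes the tissue as kidney cortex and the array group as the higher of its SJG doses, given for 8 weeks, whereas the labels say kidney and name no dose. Streptozotocin destroys beta cells, but the study's text gives no insulin levels, and healthy kidneys were not analysed here.

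The labels do not say that each array was a separate rat, and if they were not, the spread behind the p-values is partly technical. The number in the bracketed code of each sample title was the same within a group and different between groups, and what it marks cannot be told apart from treatment. Values are log2 signals, and every difference is SJG minus diabetic on the log2 scale. The middle and the spread of all signals differed between arrays. The median over all transcript clusters lay between 4.68 and 4.88 in SJG arrays and between 4.70 and 4.85 in diabetic arrays, and the SD within an array was 2.05 to 2.19 in SJG arrays and 2.12 to 2.19 in diabetic arrays. SJG replicate 2 had the highest median, the smallest SD and the lowest upper quartile.

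No mitochondrial ribosomal protein gene reached the study's thresholds of an unadjusted p under 0.05 with a change above 1.5-fold, in either direction, against 3.11% of all genes. By direction, 180 genes (0.991%) were higher and 385 (2.12%) lower in SJG kidneys, or 264 higher and 319 lower after each array was centred on its median. At an unadjusted p under 0.05 without the limit on fold, 2 members were higher in SJG kidneys, Mrps34 and Mrps11, and none was lower, against 2.64% of all genes higher and 3.6% lower (6.24% in either direction). In limma's test with Benjamini-Hochberg adjustment over all genes, 0 members passed an adjusted p of 0.05 (lowest 0.772), as did 0 of the 18166 genes. With the same fit left unmoderated, 0 members had an unadjusted p under 0.05 and 2 of all genes passed the adjusted threshold. The values of the SJG and diabetic arrays did not overlap for 1 member, Mrpl43, which was higher in every SJG array, against 5.2% of all genes without overlap and higher, and no member was without overlap and lower, against 5.3%. Every one of these counts was close to or below what the share over all genes would give.

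The differences were small and mostly of 1 sign. The log2 fold change was above 0 for 54 of the 72 members, against 50.3% of all genes and 40.8% of the 9083 genes brighter than the median. It was above 0 for 34 of 45 large-subunit members and 20 of 27 small-subunit members. The median log2 fold change was 0.12 for the large subunit (range -0.19 to 0.42) and 0.09 for the small subunit (range -0.37 to 0.53), against 0.00 for all genes and -0.05 for the brighter genes. The median standard error of a single member was 0.20. Members share the same 6 arrays and are not replicates, so these counts and medians carry no test. In bulk tissue, fewer cells of a type and less RNA per cell cannot be told apart.

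**Figure D1:**
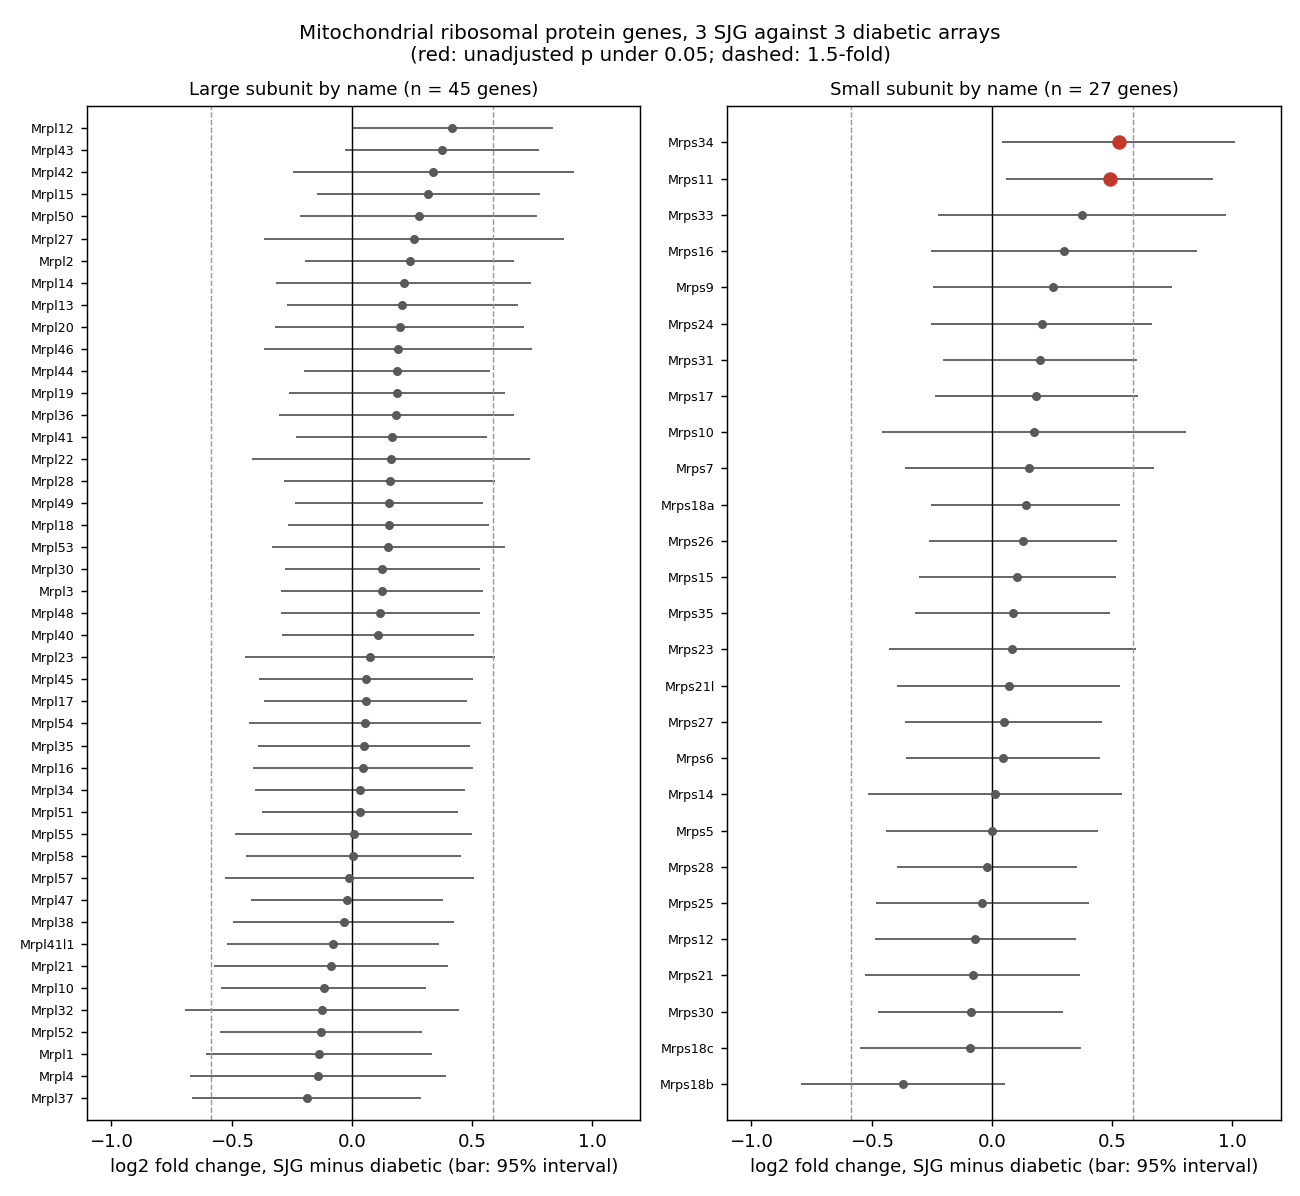
Log2 fold change (SJG minus diabetic, with 95% confidence interval from limma) of each member, large subunit and small subunit in separate panels. Most points lie right of 0, nearly every interval crosses 0, and only the red points of Mrps34 and Mrps11 had an unadjusted p under 0.05.

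The intervals show how large a change these 6 arrays could have missed. The 95% confidence interval of limma included 0 for 70 of 72 members. For 39 members the whole interval lay within 1.5-fold in both directions. It reached above a 1.5-fold increase for 28 members and below a 1.5-fold decrease for 5. The largest measured fold was 1.44, that of Mrps34.

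Mrps34 encodes mS34, a small-subunit protein found only in mitochondria. Its log2 signal was 7.87, 7.26 and 7.81 in SJG kidneys, against 6.88, 7.04 and 7.43 in diabetic kidneys. The groups overlapped, because SJG replicate 2 lay below diabetic replicate 3. The log2 fold change was 0.53 ± 0.22 (SE, unadjusted p = 0.0353 and adjusted p = 0.772 in limma), the highest among the members.

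Mrps11 encodes uS11m, a protein of the small-subunit platform with a bacterial counterpart. Its log2 signal was 5.63, 6.15 and 6.17 in SJG kidneys, against 5.44, 5.41 and 5.64 in diabetic kidneys. SJG replicate 1 and diabetic replicate 3 were nearly level, and all other SJG values lay above all diabetic values. The log2 fold change was 0.49 ± 0.20 (SE, unadjusted p = 0.0292 and adjusted p = 0.772 in limma). Both calls depended on single arrays. Mrps34 kept an unadjusted p under 0.05 only without SJG replicate 2 or diabetic replicate 3, and Mrps11 only without SJG replicate 1 or diabetic replicate 3. Over the 6 fits that each left out 1 array, p lay between 0.00741 and 0.128 for Mrps34 and between 0.00679 and 0.115 for Mrps11.

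Among the large-subunit proteins with a bacterial counterpart, Mrpl12 had the highest difference. It encodes the stalk protein that recruits translation factors, and its product has also been found bound to the mitochondrial RNA polymerase. Mrpl12 had log2 signals of 6.99, 6.86 and 7.21 in SJG kidneys, against 6.45, 6.48 and 6.89 in diabetic kidneys. Diabetic replicate 3 was again the array that reached into the SJG range. The log2 fold change was 0.42 ± 0.19 (SE, unadjusted p = 0.0508 and adjusted p = 0.772 in limma), with a 95% interval from 0.00 to 0.83. Mrpl15, which encodes uL15m, had a log2 fold change of 0.32 ± 0.21 (SE).

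Mrpl43 encodes mL43, a large-subunit protein found only in mitochondria. Its log2 signal was 6.97, 6.73 and 6.76 in SJG kidneys, against 6.25, 6.39 and 6.70 in diabetic kidneys. The gap between the groups was narrow, since diabetic replicate 3 lay just under SJG replicate 2. The log2 fold change was 0.37 ± 0.18 (SE, unadjusted p = 0.0652 and adjusted p = 0.772 in limma). Mrpl42, another protein found only in mitochondria, had 5.25, 4.29 and 5.32 in SJG kidneys, against 4.39, 4.82 and 4.64 in diabetic kidneys. Here SJG replicate 2 was the lowest of all 6 arrays, and the log2 fold change of 0.34 had a standard error of 0.27.

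**Figure D2:**
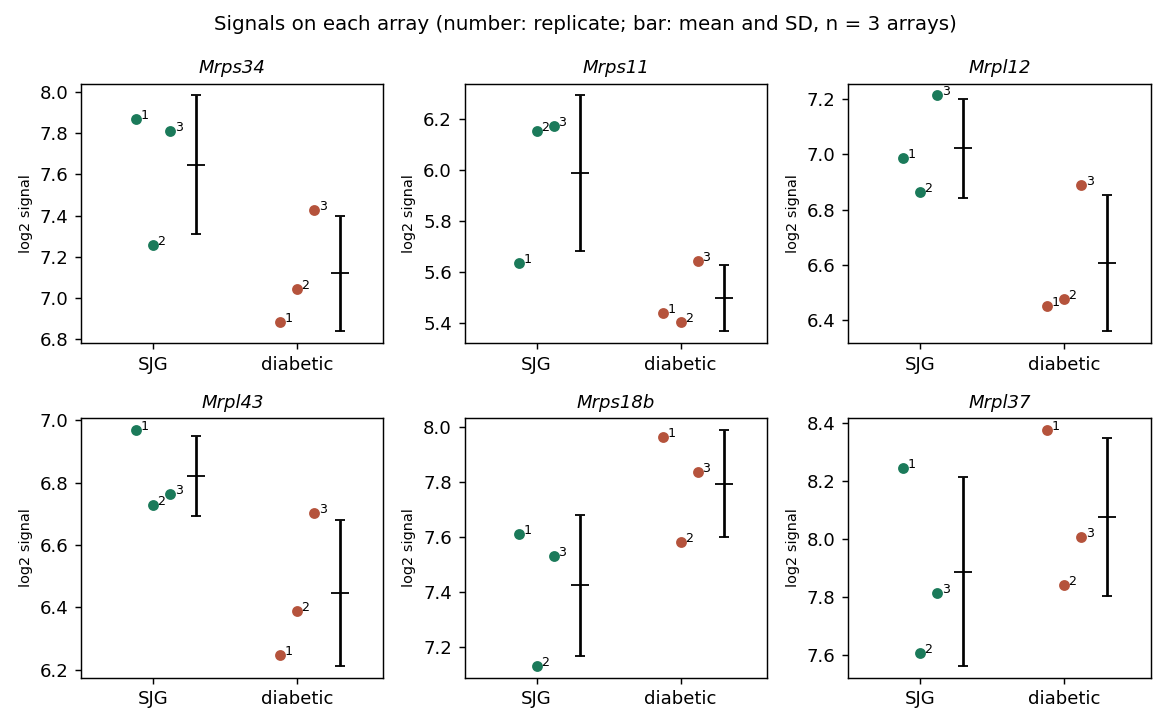
Log2 signal of named members in each array, SJG arrays left of diabetic arrays, with a bar for the mean and SD of each group (n = 3 arrays). The groups overlap for every gene shown except Mrpl43, and diabetic replicate 3 is often the highest of the diabetic arrays.

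Of the other small-subunit members with a positive difference, Mrps33 (mS33) and Mrps16 (bS16m, a core protein of the small subunit) came next to Mrps34 and Mrps11. Mrps33 had 7.85, 7.45 and 7.72 in SJG kidneys, against 6.72, 7.26 and 7.92 in diabetic kidneys. Mrps16 had 6.95, 6.91 and 7.14 in SJG kidneys, against 6.27, 6.52 and 7.32 in diabetic kidneys. In both genes the diabetic arrays held the lowest and the highest value, so the spread within the diabetic group was larger than the difference of the means. The log2 fold changes were 0.37 ± 0.27 for Mrps33 and 0.30 ± 0.25 for Mrps16 (SE).

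The lowest member of all was Mrps18b, which encodes mS40, 1 of several relatives of the bacterial protein S18. Mrps18b had 7.61, 7.13 and 7.53 in SJG kidneys, against 7.96, 7.58 and 7.84 in diabetic kidneys. Only SJG replicate 1 lay above the lowest diabetic array. The log2 fold change was -0.37 ± 0.19 (SE, unadjusted p = 0.0825 and adjusted p = 0.772 in limma). Its unadjusted p was 0.0469 without diabetic replicate 2, the only array whose omission took it under 0.05. The other relatives of S18 had values nearer to 0. Mrps18c, the direct counterpart of S18, had a log2 fold change of -0.09 ± 0.21 (SE), and Mrps18a, whose product sits in the large subunit despite its name, had 0.14 ± 0.18 (SE).

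In the large subunit the lowest values were nearer to 0. Mrpl37, whose protein is found only in mitochondria, had 8.24, 7.60 and 7.81 in SJG kidneys, against 8.37, 7.84 and 8.01 in diabetic kidneys. The groups overlapped over most of their range, and the log2 fold change was -0.19 ± 0.22 (SE). Mrpl4 (uL4m, lining the exit tunnel), Mrpl1 (uL1m, of the stalk beside the tRNA exit site) and Mrpl52 (of the central protuberance) followed with -0.14, -0.14 and -0.13, none of them beyond its standard error. In the small subunit Mrps21 had -0.08 and Mrps30, whose product belongs to the large subunit, -0.09.

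Proteins at the functional centres had differences close to or below 1 standard error. Around the peptidyl transferase centre, where peptide bonds are made, Mrpl2 had a log2 fold change of 0.24 ± 0.20, Mrpl3 0.13 ± 0.19 and Mrpl27 0.26 ± 0.28 (SE). At the decoding centre Mrps12 had -0.07 ± 0.19 (SE), with 6.16, 5.85 and 6.23 in SJG kidneys against 6.13, 5.93 and 6.39 in diabetic kidneys. Mrpl45, the anchor of the ribosome to the inner membrane, had 0.06 ± 0.20 (SE). Mrpl58, a hydrolase that frees peptides from stalled ribosomes, had 0.01 ± 0.20 (SE), and its SJG arrays, at 8.41, 7.88 and 8.59, spread over more than the diabetic arrays, at 8.32, 8.31 and 8.24.

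Mrpl41, whose product has also been described as a Bcl-2 binding protein, had 8.61, 8.54 and 8.57 in SJG kidneys, against 8.15, 8.41 and 8.65 in diabetic kidneys. The SJG arrays were close together and diabetic replicate 3 lay above them all, and the log2 fold change was 0.17 ± 0.18 (SE). The copies had small differences, -0.08 for Mrpl41l1 and 0.07 for Mrps21l, and the array may not separate a copy from its parent gene. The medians by descent were close to each other. The 42 members with a bacterial counterpart had a median log2 fold change of 0.13 (31 above 0) and the 28 found only in mitochondria had 0.10 (22 above 0).

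The large and small subunits moved together from array to array. With each gene centred on its mean over the 6 arrays, the large-subunit mean was 0.15, -0.18 and 0.18 in SJG replicates 1, 2 and 3, against -0.19, -0.06 and 0.10 in diabetic replicates 1, 2 and 3. The small-subunit mean was 0.10, -0.14 and 0.20 in the SJG arrays, against -0.21, -0.07 and 0.12 in the diabetic arrays. SJG replicate 2 and diabetic replicate 1 were low and SJG replicates 1 and 3 and diabetic replicate 3 were high for both subunits, so both groups held high and low arrays. The pooled SD of these array means within groups was 0.18 for the large and 0.17 for the small subunit.

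The difference between the subunits was far smaller than that spread. The large minus the small mean was 0.05, -0.04 and -0.02 in the SJG arrays, against 0.02, 0.01 and -0.02 in the diabetic arrays, with a pooled SD of 0.04. The mean log2 fold change of the large subunit minus that of the small subunit was -0.01. It was -0.02 with Mrps30 and Mrps18a counted in the large subunit, where mammalian structures place them.

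**Figure D3:**
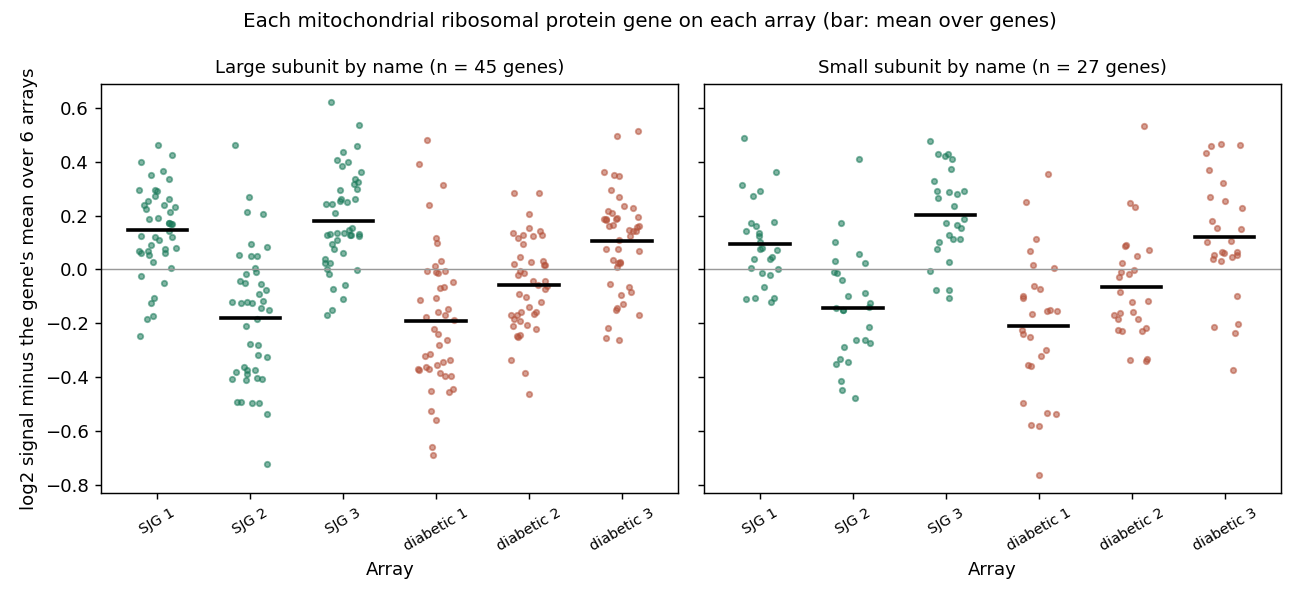
Log2 signal of every member, centred on its mean over the 6 arrays, in each array, with 1 panel per subunit, SJG arrays left of diabetic arrays and a bar at the mean over genes. Both subunits follow the same course, low in SJG replicate 2 and diabetic replicate 1 and high in SJG replicates 1 and 3 and diabetic replicate 3.

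Counted gene by gene, 58, 16 and 61 of the 72 members lay above their own mean in SJG replicates 1, 2 and 3, against 14, 25 and 56 in diabetic replicates 1, 2 and 3. Of the 72 members, 28 had their lowest value of all 6 arrays in SJG replicate 2 and 33 in diabetic replicate 1, so 61 lowest values fell in these arrays. Within the SJG group 57 members were lowest in replicate 2, against 43.3% of all genes and 62.3% of the genes brighter than the median. Within the diabetic group 45 members were lowest in replicate 1, against 29.8% of all genes and 37.8% of the brighter genes. The low values in SJG replicate 2 were thus shared by the brighter genes as a whole, whose centred mean was 0.06, -0.16 and 0.00 in the SJG arrays, against 0.01, 0.09 and -0.01 in the diabetic arrays.

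The mean correlation between pairs of large-subunit members over the 6 arrays was 0.38, and that between small-subunit members 0.37. It was 0.00 between all genes and 0.10 between the brighter genes. After the group means were taken out it was 0.40 for each subunit. These are descriptions over 6 arrays that all members share, including each array's overall distribution of signals.

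Leaving out arrays changed the counts. Without diabetic replicate 3, 10 members were higher at an unadjusted p under 0.05, against 4.59% of all genes in that fit, and 24 had no overlap and were higher, against 13.9% of all genes. None of them passed an adjusted p of 0.05 in limma, although 166 genes did. Without SJG replicate 2 the number higher at an unadjusted p under 0.05 was 4, against 2.18% of all genes in that fit, and the number with no overlap and higher 16, against 10.5%. In the same fit 67 members had a log2 fold change above 0, against 52% of all genes. Without SJG replicate 3, diabetic replicate 1 or diabetic replicate 2 no member was higher at an unadjusted p under 0.05, and without SJG replicate 1 there was 1. The median log2 fold change was 0.01 for the large and 0.02 for the small subunit without SJG replicate 3, and 0.02 and 0.00 without diabetic replicate 1. It was 0.06 and 0.07 without SJG replicate 1, 0.21 and 0.18 without SJG replicate 2, and 0.17 and 0.19 without diabetic replicate 3. Without SJG replicate 3, 43 of the 72 members were above 0, against 47.5% of all genes. Without diabetic replicate 1, 39 were above 0, against 50.3%.

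Markers of cell type and injury also differed between the arrays, but not in the order of the ribosomal proteins. Diabetic replicates 1 and 2 had similar injury and macrophage sums, whereas their centred means over the ribosomal protein members were -0.20 and -0.06. The summed linear signal of 3 tubule injury genes, Havcr1, Lcn2 and Spp1, was 1349, 593 and 1803 in the SJG arrays, against 6522, 6714 and 2213 in the diabetic arrays. That of 7 macrophage markers was 1355, 947 and 1368 in the SJG arrays, against 3297, 3583 and 1408 in the diabetic arrays. Diabetic replicate 3 thus came closest to the SJG arrays on both sums. All 7 macrophage markers had a log2 fold change below 0, but only Lyz2, the brightest, was without overlap between the groups. Cd163 was nearly level, at -0.07 ± 0.27 (SE). Adipocyte markers (4 of 4 measured) summed to 321, 943 and 268 in the SJG arrays, against 238, 308 and 258 in the diabetic arrays, and SJG replicate 2 stood apart. Red cell markers (2 of 4 measured) summed to 642 to 1423 in the SJG arrays, against 162 to 564 in the diabetic arrays.

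The labelled tissue was borne out by all 5 proximal tubule markers, which summed to 11280 to 13170 in the SJG arrays and 11040 to 13780 in the diabetic arrays. The 5 markers of the thick ascending limb and distal tubule summed to 8379 to 9299 in the SJG arrays and 6793 to 6910 in the diabetic arrays, and these sums did not overlap. Taken singly, only Egf and Umod were without overlap, whereas Slc12a1, Slc12a3 and Pvalb overlapped between the groups. The 5 immediate early genes, which respond to stress and handling, summed to 627 to 819 in the SJG arrays and 817 to 3740 in the diabetic arrays. The 2 podocyte markers measured, of 4 listed, summed to 592 to 813 in the SJG arrays and 622 to 749 in the diabetic arrays. The part of these differences in the ribosomal protein values was not tested.

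Genes that work with the mitochondrial ribosome were set beside it. The respiratory chain and ATP synthase contain the products of mitochondrial translation and many more subunits encoded in the nucleus. Of 90 such nuclear genes, 71 had a log2 fold change above 0, with a median of 0.20. At an unadjusted p under 0.05, 2 were higher and none was lower, against 2.64% and 3.6% of all genes. The complex I subunit Ndufb8, 1 of the 2, passed the study's thresholds, with a log2 fold change of 0.97 ± 0.33 (SE, unadjusted p = 0.0142 and adjusted p = 0.747 in limma). Its groups overlapped, because diabetic replicate 3, at 8.71, lay above SJG replicates 1 and 2, at 8.70 and 8.52. The other of the 2 was Cox6a2, a subunit of cytochrome c oxidase, at 0.44 ± 0.19 (SE). The 39 complex I genes alone had a median of 0.24, and 33 of them were above 0.

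The array means of these respiratory genes followed those of the ribosomal proteins in part. They were 0.09, -0.06 and 0.24 in the SJG arrays, against -0.25, -0.16 and 0.14 in the diabetic arrays, again with a high diabetic replicate 3. The mean pairwise correlation within the list was 0.37. The cytosolic ribosomal proteins, which build the ribosome outside the mitochondria, had a median nearer to 0 and a wider spread of log2 fold changes. Among 146 genes, copies included, 77 had a log2 fold change above 0, the median was 0.01 and the mean pairwise correlation 0.06. Their log2 fold changes ranged from -0.71 to 0.95 with an SD of 0.26, against an SD of 0.16 over the 72 members. Both ends of that range were genes named as copies, Rpl14l2 and Rpl29l2, with mean log2 signals of 2.81 and 4.96. At an unadjusted p under 0.05, 6 were higher and 1 lower, against 2.64% and 3.6% of all genes. Past the study's thresholds, 4 were higher and 1 lower, against 0.991% and 2.12% of all genes. All of the genes so called, except Rpl27a, were named as copies. The array means of the cytosolic ribosomal proteins were 0.05, -0.11 and 0.09 in the SJG arrays, against -0.05, 0.03 and -0.02 in the diabetic arrays.

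**Figure D4:**
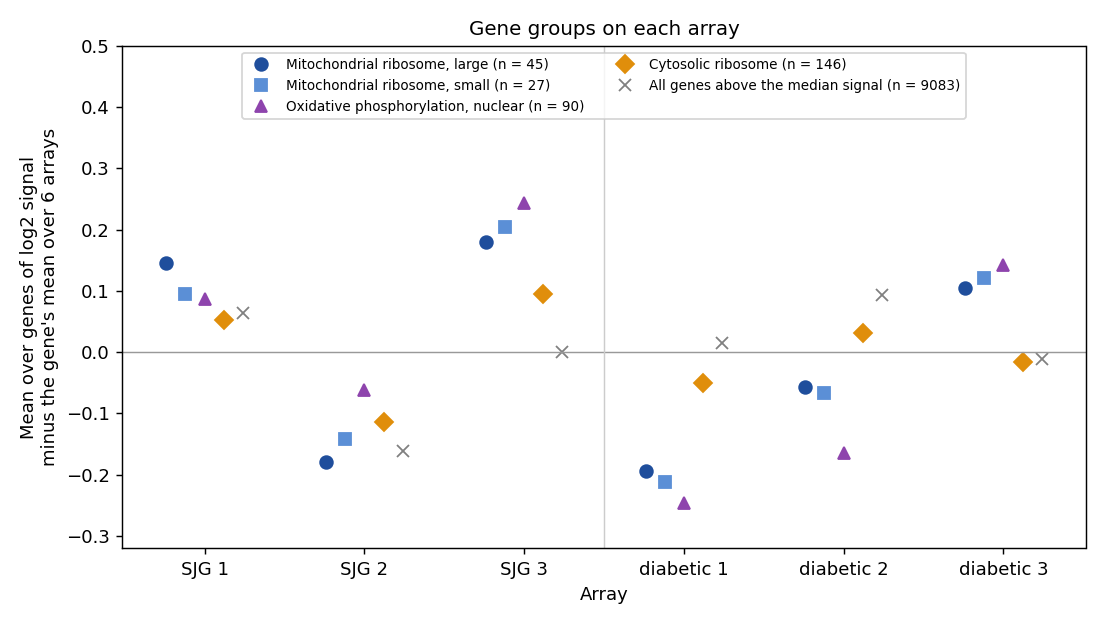
Mean log2 signal per array, each gene centred on its mean over the 6 arrays, for the large and small mitochondrial subunits, the nuclear genes of oxidative phosphorylation, the cytosolic ribosomal proteins and the genes brighter than the median, with SJG arrays left of diabetic arrays. The mitochondrial groups range from about -0.25 to 0.24, and the cytosolic ribosomal proteins and the brighter genes share the low SJG replicate 2 but lie at -0.05 and 0.01 in diabetic replicate 1.

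The other steps of mitochondrial translation had medians nearer to 0. Of 5 ribosomal proteins with other names, 3 were above 0, with a median of 0.05 (Chchd1 0.28, Dap3 0.05, Ptcd3 -0.16). Of 14 genes that serve translation in other ways (initiation, elongation, release and recycling factors, and genes such as Lrpprc and Slirp for messenger RNA stability and Oxa1l for membrane insertion), 9 were above 0, with a median of 0.07, and the elongation factors Gfm1 and Tufm had 0.23 and 0.14. Of 25 assembly factors, 14 were above 0, with a median of 0.01. None of these genes had an unadjusted p under 0.05.

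The genes that charge mitochondrial tRNAs with amino acids were aminoacyl-tRNA synthetases and the amidotransferase subunits Gatb, Gatc and Qrsl1. Of 18 such genes, 11 were above 0, with a median of 0.03, and the lowest was Wars2 at -0.38 ± 0.25 (SE). At an unadjusted p under 0.05, 1 was higher and none was lower, against 2.64% and 3.6% of all genes. The gene so called was Pars2, the prolyl-tRNA synthetase. Its 3 log2 signals averaged 4.73 in SJG kidneys, the lowest at 4.68, against 4.23 in diabetic kidneys, the highest at 4.43. Pars2 was dim, with a mean signal of 4.48 against a median of 5.6 over all genes. The groups did not overlap for Pars2, against 5.2% of all genes without overlap and higher. Its log2 fold change was 0.50 ± 0.18 (SE, unadjusted p = 0.0153 and adjusted p = 0.747 in limma).

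The genes for maintenance and transcription of mitochondrial DNA, which supply the ribosomal RNAs and the messages to be translated, had a median of 0.04. Of these 12, 8 were above 0, among them Tfam, which packages mitochondrial DNA, at 0.03 and the RNA polymerase Polrmt at 0.06. The largest change among the 12 was a decrease, that of Ssbp1 at -0.29 ± 0.18 (SE). Only Twnk, at -0.12 ± 0.16 (SE), was without overlap and lower, against 5.3% of all genes. The regulators of mitochondrial biogenesis were mostly below 0. Of 9 measured, 2 were above 0 and the median was -0.16. Nrf1, a factor that binds the promoters of many respiratory genes, had -0.32 ± 0.19, the coactivator Ppargc1a -0.37 ± 0.23 (SE) and Gabpa, the DNA-binding subunit of the ETS-family factor GABP, -0.20. None of the 9 had an unadjusted p under 0.05 in limma.

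Promoters of the members were read for the letters these factors are known to bind. RefSeq's table for build GRCr8 held a promoter, 250 bases before to 50 after the start, for 58 of the 72 members. On either strand, the palindromic motif of the factor NRF1 was in 9 of the 58 (15.5%), against 4.71% of all 27457 promoters and 6.09% of those of protein-coding genes. The ETS letters CCGGAAG were in 20 (34.5%), against 9.22% and 11.2%. The YY1 letters AAGATGG were in 16 (27.6%), against 7.3% and 7.58%, and the letters CCAAT were in 27 (46.6%), against 37.7% and 38.4%. The ETS motif ends in the 3 letters with which the YY1 motif begins, so a match to each can share them. At least 1 of the first 3 was in 33 members (56.9%), in 48.4% of 93 promoters of nuclear oxidative phosphorylation genes and in 22% of those of protein-coding genes. The median GC content was 55.8% for the members and 55.3% for protein-coding genes. A match is a run of letters, not a measured site.

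Short stretches from 4 large-subunit promoters show these letters and their absence. The first has none of the 3 motifs and belongs to the large-subunit gene with the highest fold change, and the others hold the NRF1 motif, the ETS motif or both. Capitals mark them, with NRF1 matches as the longer runs and ETS matches as the shorter, all stretches are on the + strand, and each is 100 bases long. They lie at chr10:106256646-106256745 for Mrpl12, chr10:82804889-82804988 for Mrpl45, chr4:117172943-117173042 for Mrpl53 and chr15:36086357-36086456 for Mrpl57.
Mrpl12: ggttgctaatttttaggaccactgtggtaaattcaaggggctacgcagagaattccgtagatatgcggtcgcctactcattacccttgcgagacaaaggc
Mrpl45: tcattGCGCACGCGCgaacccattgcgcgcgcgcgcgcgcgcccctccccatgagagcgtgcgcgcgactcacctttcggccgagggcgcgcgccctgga
Mrpl53: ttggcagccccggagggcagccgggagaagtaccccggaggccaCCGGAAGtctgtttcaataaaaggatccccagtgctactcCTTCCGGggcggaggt
Mrpl57: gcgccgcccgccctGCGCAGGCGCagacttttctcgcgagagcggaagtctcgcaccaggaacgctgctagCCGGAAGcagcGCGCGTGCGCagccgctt

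Median log2 fold changes of members with and without each motif were close. Members with the NRF1 motif had a median log2 fold change of 0.06 (9 members) and those without 0.12 (49 members). It was 0.12 with and 0.11 without the ETS letters, and 0.13 with and 0.11 without the YY1 letters. Mrpl12, printed above without a motif, had 0.42, whereas Mrpl45, Mrpl53 and Mrpl57 had 0.06, 0.15 and -0.01. Mrps18b, the lowest member, held all 3 motifs, and Mrps11 and Mrps33, among the highest, held none. For 15 of the 58 members, Mrps11 and Mrps33 included, the annotation of the gene extends over 100 bases before the start used in the table, so the window may miss a promoter in use.

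Many members start beside another gene. For 17 of the 58 members (29.3%), a protein-coding gene on the opposite strand starts within 1000 bases upstream, against 6.99% of 19005 protein-coding genes. One such pair joins both subunits: Mrps11 and Mrpl46 (mL46, of the central protuberance) start 234 bases apart, with log2 fold changes of 0.49 and 0.19. Mrpl46 had 7.19, 6.29 and 7.28 in SJG kidneys, against 6.76, 6.85 and 6.57 in diabetic kidneys, so its array pattern, with SJG replicate 2 lowest, was not that of Mrps11, which had SJG replicate 2 near its highest value. Mrpl47 starts 244 bases from the complex I gene Ndufb5, with -0.02 and 0.29, and Mrpl49 186 bases from Fau, which encodes a cytosolic ribosomal protein, with 0.16 and -0.29.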

How the data were processed

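The arrays were of the type Affymetrix Rat Gene 2.0 ST. The authors deposited 1 value per transcript cluster and array on a log scale, taken as log2 from its range, and no normalization was added to these log2 values. Software and normalization steps: not given in the sources used here. Of 36685 transcript clusters, 18511 had 1 gene, 575 several and 17599 no name. Symbols were updated by gene number against RefSeq GRCr8 (18394 matched), and the transcript cluster with the highest mean stood for each of 291 genes with several, none of them a member.

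R 4.3.3 and limma 3.58.1 (lmFit, eBayes, two-sided, Benjamini-Hochberg adjustment) were fitted to all genes on 6 arrays, and tested on simulated data. Brighter genes are those above the median mean signal. Marker sums are of 2 raised to the log2 signal. Promoters were scanned with Python 3.11.15.

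Named were members with an unadjusted p under 0.05, the 4 highest and 4 lowest per subunit, those without overlap and those with particular roles. From each list of other genes the rule took up to 4 past the study's thresholds, or else those with the smallest p. Not all genes taken from the lists by this rule were named. Members at the peptidyl transferase centre, Mrpl41l1, Mrps21l, neighbouring genes and some examples of the other lists were chosen after their values were seen. The members and lists were chosen with earlier results of these data known. Alternatives were another normalization, filter, weighting or row choice, a replicate block and leaving out each array.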

Additional observations from a re-analysis of the deposited data

How the results depend on the processing

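Arrays of the same replicate number did not deviate together (correlations of -0.02, -0.29 and 0.00 for replicates 1, 2 and 3). The labels do not say whether the number pairs the samples, and so few correlations cannot settle it. With replicate number as a block, 2 members were higher at an unadjusted p under 0.05, against 2.11% of all genes. In that fit 1 member was without overlap and higher, against 5.2% of all genes, and the subunit medians remained 0.12 and 0.09.

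The subunit medians stayed above 0 under the other settings, but their size moved. With all arrays kept, they were 0.11 to 0.18 for the large and 0.09 to 0.22 for the small subunit (0.16 and 0.22 with array weights), and 53 to 62 members were above 0. The median of all genes moved as well. It was 0.02 after quantile normalization, 0.05 after median centring and 0.01 with array weights, with 54%, 58.7% and 51.8% of all genes above 0. Counts near 0 moved more. Members higher at an unadjusted p under 0.05 numbered 4 after quantile normalization, 4 after median centring, 5 with array weights and 0 in the unmoderated test, against 3.85%, 4.01%, 4.23% and 2.38% of all genes. Members without overlap and higher numbered 4 after quantile normalization, against 7.64% of all genes. With array weights 1 member passed the study's thresholds, and of all 18166 genes 237 were higher and 493 lower past them. Past those thresholds, 76 of all genes were higher and 77 lower in the unmoderated test, and 90 were higher and 236 lower among the genes above the median signal, where fewer genes were tested.

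Leaving out each array in turn gave 0 to 3 members past the study's thresholds, 0 to 10 higher and 0 to 1 lower at an unadjusted p under 0.05, and 1 to 24 higher and 0 to 3 lower without overlap. The shares of all genes in these fits were 1.7% to 4.59% higher at an unadjusted p under 0.05, 7.78% to 13.9% without overlap and higher, and 7.78% to 15.4% without overlap and lower. Past the study's thresholds, 170 to 435 of all genes were higher and 223 to 1014 lower, the highest counts without diabetic replicate 3. No member passed an adjusted p of 0.05 in limma under any setting, with 0 to 10 higher at an unadjusted p under 0.05. The large minus small difference lay between -0.03 and 0.01. With 3 arrays per group and no detection call, dim genes may lie near background, and a true change anywhere within a gene's interval remains possible. The causes were not tested.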
